A study of Mus musculus with 6 samples.

Results

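The genes described here are 8 mouse genes that write, maintain or remove DNA methylation: the maintenance pair *Dnmt1* and *Uhrf1*, the de novo group *Dnmt3a*, *Dnmt3b* and *Dnmt3l*, and the demethylation group *Tet1*, *Tet2* and *Tdg*. They were chosen by gene symbol, with earlier results of these data known. They are 8 of the 9474 genes tested for spliced reads, and 108 of the 85015 unique introns listed in the tables belong to them. Of these introns, 106 were listed in all 4 total RNA libraries and 104 had enough reads to be tested. The 2 untested ones are introns 16 and 18 of *Dnmt3b*, intron 9 of *Dnmt3b* was not listed in 1 knockdown library, and a 94 nt intron of *Tet2* was listed in the controls alone, with all its split reads at the 5′ junction. All 8 genes passed the filter on low counts.

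Methylation of cytosine in CpG pairs is copied after DNA replication by Dnmt1, a methyltransferase that prefers DNA with a methyl group on the old strand alone. Uhrf1 binds such half-methylated DNA together with histone H3 and brings Dnmt1 to it. Dnmt3a and Dnmt3b place new methyl groups, and Dnmt3l, which has no catalytic activity of its own, stimulates them and is abundant in embryonic stem cells and germ cells. Tet1 and Tet2 oxidise methylcytosine, and Tdg is the glycosylase that cuts out the more oxidised bases so that base excision repair can put back an unmodified cytosine.

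All samples were E14 mouse embryonic stem cells (mESCs), a line of 129/Ola background, grown on gelatin with serum and leukaemia inhibitory factor. Cells were lipofected with a control siRNA or with an siRNA against *Son*, which encodes a large protein of nuclear speckles that is needed for the splicing of a subset of introns, and RNA was taken 24 hours after transfection. Ribosome-depleted total RNA was sequenced from 2 samples with the control siRNA and 2 with the *Son* siRNA. Polyadenylated RNA of 1 sample per treatment was read as Nanopore cDNA. The labels do not say whether replicates came from separate cultures, so p-values measure only the spread between these samples, which may be technical. The knockdown is transient and every control was itself transfected.

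At 5′ junctions, each total RNA library held between 10556187 and 16012286 split reads. The long-read control held 3080426 reads and the long-read knockdown 1874851. *Son* had 281 and 312 CPM (spliced reads scaled to the library total) in the controls against 94.6 and 102 in the knockdown, a log2 fold change of -1.61 (SE 0.09, edgeR adjusted p = 3.72e-10), so 32.7% of the control level was left. Of 12 markers of embryonic stem cells, 11 were listed in every library, *Sox2* being the one that was not, and their summed level ranged from 4900 to 5190 CPM. Of 30 markers of formative, endodermal, mesodermal, neural, fibroblast and 2-cell-like cells, 11 were listed in any library and 7 in all 4. Their summed level was 83.2 and 80.0 CPM in the controls and 96.0 and 91.4 CPM in the knockdown, mostly from the neural list, and its part in the results below was not tested. No marker of the 2-cell-like state was listed, and of the fibroblast markers *Col1a1*, *Col1a2*, *Dcn*, *Lum* and *Postn* were not listed. Only introns are listed, so a gene without introns cannot be, and a marker that is not listed, *Sox2* included, is not thereby shown to be absent.

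In the knockdown the maintenance pair was lower and the other 6 genes were not called. Spliced reads of *Uhrf1* fell to 63.4% and those of *Dnmt1* to 69.9% of the control level, and both genes were also spliced less efficiently. All 9 introns called less efficiently spliced lay in these genes, 6 in *Dnmt1* and 3 in *Uhrf1*. No member intron was called more efficiently spliced. Spliced reads of *Dnmt3a*, *Dnmt3b*, *Dnmt3l*, *Tet1*, *Tet2* and *Tdg* stood at between 90.3% and 103% of the control level, with no call in either direction.

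Splicing efficiency is the share of split reads, which skip the intron, among all reads at an intron's 5′ and 3′ junctions. For each gene it was taken over its introns listed in all 4 libraries, and the difference is given as the log2 odds ratio of unsplit to split reads, where a value above 0 means less efficient splicing in the knockdown. Spliced reads are split reads at 5′ junctions summed over a gene's introns, in CPM. An adjusted p under 0.05 over all introns or genes is a call. Rates of intron removal and of RNA loss were not measured.

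*Dnmt1* (ENSMUSG00000004099, chromosome 9, minus strand) had 1105 and 1178 CPM of spliced reads in the controls against 865 and 753 in the knockdown. The knockdown libraries lay below both controls, and the log2 fold change was -0.52 (SE 0.07, edgeR adjusted p = 4.26e-05). Its splicing efficiency was 0.961 and 0.954 in the controls against 0.937 and 0.917 in the knockdown. These groups did not overlap either, and the log2 odds ratio was 0.82 (SE 0.21, edgeR adjusted p = 0.00222). Unsplit reads of *Dnmt1* amounted to 41.4 and 53.1 CPM, here scaled to all junction reads, in the controls against 53.8 and 62.9 in the knockdown. The ratio of means was 1.24, while split reads at both junctions, scaled in the same way, had a ratio of 0.706.

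*Uhrf1* (ENSMUSG00000001228, chromosome 17, plus strand) had 572 and 611 CPM of spliced reads in the controls against 392 and 368 in the knockdown. The groups did not overlap, and the log2 fold change was -0.66 (SE 0.07, edgeR adjusted p = 2.04e-06), the lowest of the 8 genes. Its splicing efficiency was 0.952 and 0.948 in the controls against 0.911 and 0.908 in the knockdown, a log2 odds ratio of 0.92 (SE 0.22, edgeR adjusted p = 0.000705). The difference in means, knockdown minus control, was -0.0405, larger than the spread within either group, where the SD was 0.0032 in the controls and 0.0022 in the knockdown (n = 2 each). Unsplit reads were 26.1 and 30.7 CPM in the controls against 34.6 and 33.7, a ratio of means of 1.20. Split reads at both junctions, scaled in the same way, had a ratio of 0.638. Higher unsplit reads were not particular to the pair. The unsplit ratio was 1.64 in *Dnmt3a*, 1.19 in *Tdg*, 1.18 in *Tet1*, 1.11 in *Dnmt3l*, 1.09 in *Tet2* and 0.936 in *Dnmt3b*. Split ratios of these genes lay between 0.913 and 1.05. In bulk RNA, fewer cells that make a transcript and less of it per cell cannot be told apart.

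Over all genes, 6.98% were called less and 0.128% more efficiently spliced, 6.76% were called lower and 1.96% higher in spliced reads, and 4.8% were called lower in both. Among the 8 genes, 2 were called less efficiently spliced and the same 2 were called lower in spliced reads. The median of the 8 genes was 0.18 for the log2 odds ratio, against 0.09 over all genes, and -0.08 for the log2 fold change of spliced reads, against 0.0054 over all genes. The efficiency calls rested on single libraries and on the test. Without control library 1 neither gene was called (*Dnmt1* adjusted p = 0.395, *Uhrf1* 0.178), without knockdown library 2 *Uhrf1* alone was called (*Dnmt1* 0.284), and limma on log odds called neither (0.319 and 0.213). With split and unsplit reads scaled separately, which moved the median log2 odds ratio over all genes from 0.09 to -0.08 and the calls from 654 lower and 12 higher to 601 lower and 118 higher, both were still called (*Dnmt1* 0.65, *Uhrf1* 0.76). Over all settings tried, the adjusted p of the efficiency difference ranged from 1.31e-17 to 0.395 for *Dnmt1* and from 1.28e-16 to 0.213 for *Uhrf1*. The spliced-read calls of both genes held in every setting tried.

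**Figure D1:**
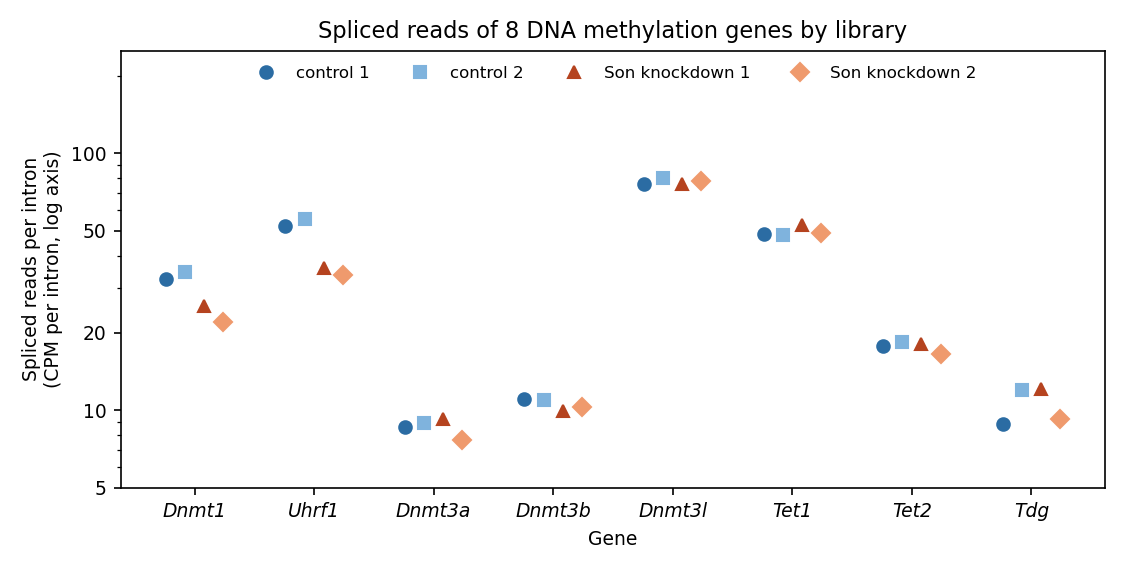
Spliced reads of the 8 genes in each total RNA library, as CPM divided by the number of introns summed, on a log axis; each marker is 1 library. The knockdown markers of Dnmt1 (25.5 and 22.2) and Uhrf1 (35.7 and 33.5) lie below both controls (32.5 and 34.7, and 52.0 and 55.5). In the other genes except Dnmt3b and Tet1 the markers of the groups overlap.

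The 9 called introns had a lower splicing efficiency in both knockdown libraries than in either control, and each lies between coding exons. They are 8.65% of the 104 member introns tested, against 1.71% of all introns tested. No member intron was called in the other direction, against 0.0442% of all. These shares were not matched for read depth or intron length. The sequences of the joined exons are shown because these are the junctions that the split reads span. Each line gives 20 bases of exon on either side of the removed intron, 5′ to 3′, with the last 3 bases of the upstream exon and the first base of the downstream exon in capitals. They come from the GENCODE M21 transcripts ENSMUST00000216540 (*Dnmt1*) and ENSMUST00000001258 (*Uhrf1*), whose intron numbers are used.
Dnmt1 intron 13: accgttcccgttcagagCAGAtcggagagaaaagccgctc
Dnmt1 intron 14: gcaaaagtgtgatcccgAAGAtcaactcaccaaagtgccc
Dnmt1 intron 15: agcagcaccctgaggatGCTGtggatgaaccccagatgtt
Dnmt1 intron 20: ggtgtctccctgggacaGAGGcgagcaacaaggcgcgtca
Dnmt1 intron 31: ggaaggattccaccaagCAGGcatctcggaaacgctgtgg
Dnmt1 intron 37: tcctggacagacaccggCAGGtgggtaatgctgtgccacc
Uhrf1 intron 4: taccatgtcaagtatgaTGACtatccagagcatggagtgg
Uhrf1 intron 7: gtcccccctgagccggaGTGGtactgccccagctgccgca
Uhrf1 intron 8: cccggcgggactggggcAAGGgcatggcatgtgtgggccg
The upstream exon ended in AG at 6 of these 9 junctions and at 62 of the 95 other tested member introns, and the downstream exon began with G at 6 of 9 and at 55 of 95. The intron sequences themselves were not used here.

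In *Dnmt1*, introns 13, 14 and 15 follow each other and were all called. They are 258, 94 and 76 nt long, and the exons between them are 43 nt (exon 14) and 81 nt (exon 15). These exons are shown whole, with the bases next to an intron in capitals as above, since both lie between called introns.
Dnmt1 exon 14: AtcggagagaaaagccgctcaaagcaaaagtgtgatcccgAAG
Dnmt1 exon 15: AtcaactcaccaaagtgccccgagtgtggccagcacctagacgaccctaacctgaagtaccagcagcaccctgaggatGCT
Intron 13 (chr9:20838145-20838402, positions as in the deposited tables) had an efficiency of 0.977 and 0.967 in the controls against 0.951 and 0.917 in the knockdown (log2 odds ratio 1.26, SE 0.34, edgeR adjusted p = 0.0257). Intron 14 (chr9:20838008-20838101) had 0.959 and 0.958 against 0.919 and 0.897 (log2 odds ratio 1.21, adjusted p = 0.0177). Intron 15 (chr9:20837851-20837926) had 0.952 and 0.935 against 0.895 and 0.834 (log2 odds ratio 1.36, adjusted p = 0.0169). In all 3, knockdown library 2 was the lowest.

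Intron 20 (chr9:20833497-20833589, 93 nt) showed the largest fall among the called introns of *Dnmt1*. Its efficiency was 0.901 and 0.921 in the controls against 0.799 and 0.684 in the knockdown. In reads, 384 split and 42 unsplit reads in control 1 stood against 167 split and 77 unsplit reads in knockdown 2 (log2 odds ratio 1.80, edgeR adjusted p = 0.0144). Intron 31 (chr9:20823312-20823475, 164 nt) had 0.983 and 0.978 in the controls against 0.948 and 0.949 in the knockdown, with little spread within a group (log2 odds ratio 1.46, adjusted p = 0.0102). Intron 37 (chr9:20819258-20819767, 510 nt), the last listed one of the gene, had 0.979 and 0.962 against 0.938 and 0.912 (log2 odds ratio 1.43, adjusted p = 0.00652).

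Of the 34 *Dnmt1* introns tested, 32 had a log2 odds ratio above 0, against 58% of all introns tested. In 18 both knockdown libraries lay below both controls, against 24.3% of all, and in none did both lie above, against 13.1%. Introns 8 and 17 had log2 odds ratios of -0.79 and -0.11, and their groups overlapped. Introns 10 to 12, upstream of the called run, had efficiencies of 0.946 or more in every library. The least efficiently spliced introns of the gene in controls, intron 6 (0.721 and 0.667) and intron 29 (0.845 and 0.765), had overlapping groups and were not called.

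In *Uhrf1*, the 2 introns around exon 8 fell most among its called introns. Exon 8, of 124 nt, is shown with the bases next to an intron in capitals.
Uhrf1 exon 8: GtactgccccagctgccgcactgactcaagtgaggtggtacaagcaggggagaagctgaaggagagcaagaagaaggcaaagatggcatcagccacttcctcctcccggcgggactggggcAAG
Intron 7 (chr17:56620252-56622191, 1940 nt) had an efficiency of 0.934 and 0.948 in the controls and 0.835 in both knockdown libraries (log2 odds ratio 1.66, SE 0.36, edgeR adjusted p = 0.00222), the smallest adjusted p of the 104 introns. Intron 8 (chr17:56622316-56622398, 83 nt) had 0.931 and 0.926 against 0.833 and 0.822 (log2 odds ratio 1.43, adjusted p = 0.0379). Intron 4 (chr17:56617837-56619053, 1217 nt) had 0.973 and 0.960 against 0.918 and 0.934 (log2 odds ratio 1.22, adjusted p = 0.0138).

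All 11 tested introns of *Uhrf1* had a log2 odds ratio above 0, and in 10 both knockdown libraries lay below both controls (24.3% of all introns), the exception being intron 11. Intron 14 (114 nt) had 0.873 and 0.868 in the controls against 0.803 and 0.605 in the knockdown. That difference in means, from 0.870 to 0.704, was the largest of the gene, but knockdown library 2 held only 26 split and 17 unsplit reads there and the intron was not called (edgeR adjusted p = 0.430).

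**Figure D2:**
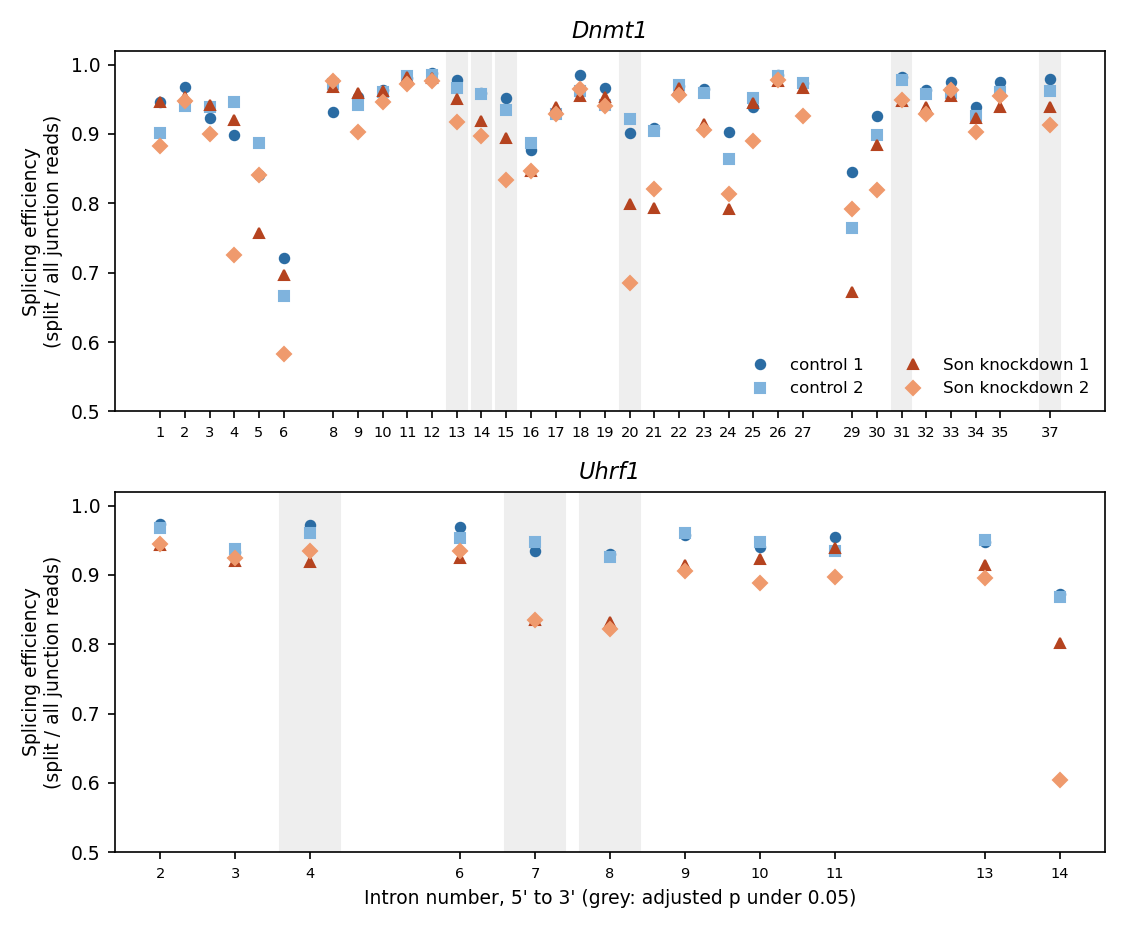
Splicing efficiency (vertical axis, from 0.5) of every intron of Dnmt1 and Uhrf1 listed in all 4 libraries, by intron number; each marker is 1 library and grey bands mark called introns. In the bands both knockdown markers lie below both control markers, lowest at Dnmt1 intron 20 (0.799 and 0.684).

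Most introns of the maintenance pair pointed toward lower efficiency, also where they were not called. In *Dnmt1* and *Uhrf1* together, 43 of 45 introns had a log2 odds ratio above 0 with a median of 0.79, 20 had an unadjusted p under 0.05 for lower efficiency and 9 were called. In the other 6 genes, 41 of 59 introns had a ratio above 0 with a median of 0.15, 4 had an unadjusted p under 0.05 for lower and 1 for higher efficiency, and edgeR called none. Over all introns tested, 58% had a ratio above 0, the median was 0.12, and 8.11% had an unadjusted p under 0.05 for lower and 1.61% for higher efficiency. Both knockdown libraries lay below both controls in 28 of 45 introns of the pair and 14 of 59 of the other genes, against 24.3% of all introns. Both lay above in 0 of 45 and 3 of 59, against 13.1%. Among the other 6 genes, *Dnmt3a*, with 15 introns tested, held 13 of the 41 ratios above 0. It also held 8 of the 14 introns with both knockdown libraries below, and 3 of the 4 with an unadjusted p under 0.05 for lower efficiency. Its gene-level log2 odds ratio of 0.76 was near the 0.82 of *Dnmt1* but was not called. Introns of the same gene share transcripts and libraries, so counts of introns are not independent observations.

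The called introns had a median length of 164 nt, against 797.5 nt for the tested member introns and 1128 nt for all tested introns. Of introns up to 300 nt, 6 of 18 in the pair and 0 of 13 in the other genes were called, against 6.4% of all introns of that length. Above 300 nt, 3 of the 73 member introns were called, against 0.477%. Median lengths were similar in the pair (784 nt) and the other 6 genes (811 nt).

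The number of called introns depended on the libraries and the test. Without control library 1 no member intron was called, without control library 2 there were 2, without knockdown library 2 there were 3 and without knockdown library 1 there were 8. DESeq2 called 1, limma on log odds none, and the 5′ or 3′ junction alone gave 1 and 2. Shares of all introns called in these settings are not given here. The counts therefore do not compare member introns with other introns.

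**Figure D3:**
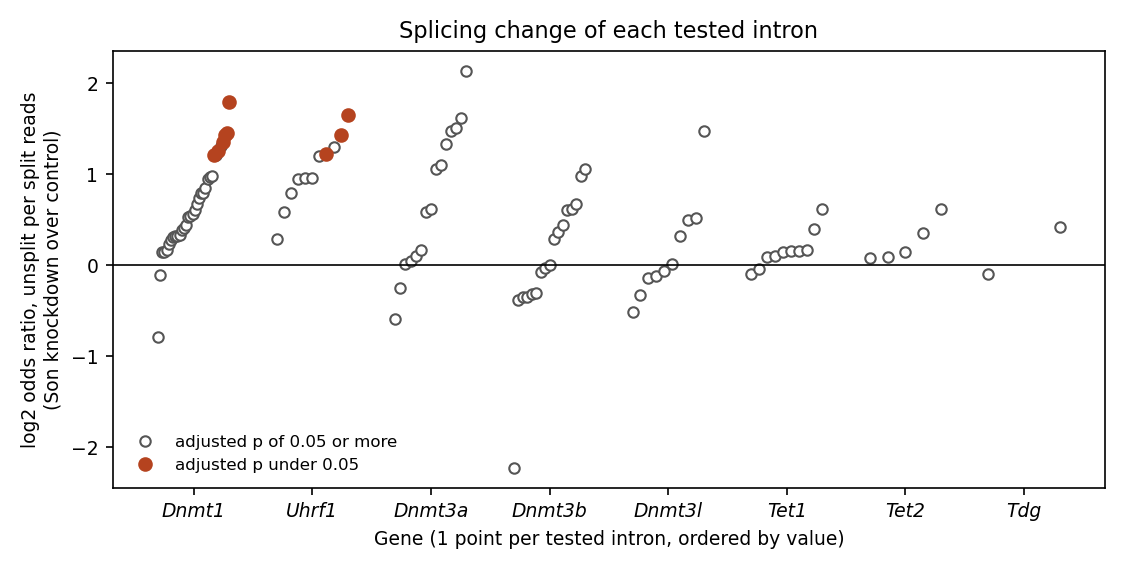
Log2 odds ratio of unsplit to split reads, knockdown over control, for each of the 104 tested introns by gene; 1 point is 1 intron and filled points are called. The 9 filled points lie between 1.21 and 1.80, in Dnmt1 and Uhrf1, and 11 of 11 points of Uhrf1 lie above 0.

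Fewer split reads were counted along nearly the whole of both maintenance genes. Among introns with at least 40 split reads, both knockdown libraries had a lower split-read CPM than both controls in 30 of 33 introns of *Dnmt1* and 11 of 11 of *Uhrf1*, against 20.1% of all introns. Introns of the same gene share transcripts and libraries, so these counts show where the gene-level difference lies and are not separate evidence for it. The median log2 ratio was -0.46 in *Dnmt1* and -0.63 in *Uhrf1*. In the introns of these genes that were not called for efficiency it was -0.45 (27 introns) and -0.72 (8 introns). With every called intron left out, an alternative chosen after seeing the data, spliced reads of *Dnmt1* (log2 fold change -0.47, edgeR adjusted p = 0.000133, range over all settings 2.24e-36 to 0.0231) and *Uhrf1* (-0.67, adjusted p = 3.69e-06, range 8.29e-34 to 0.0115) were still called lower.

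**Figure D4:**
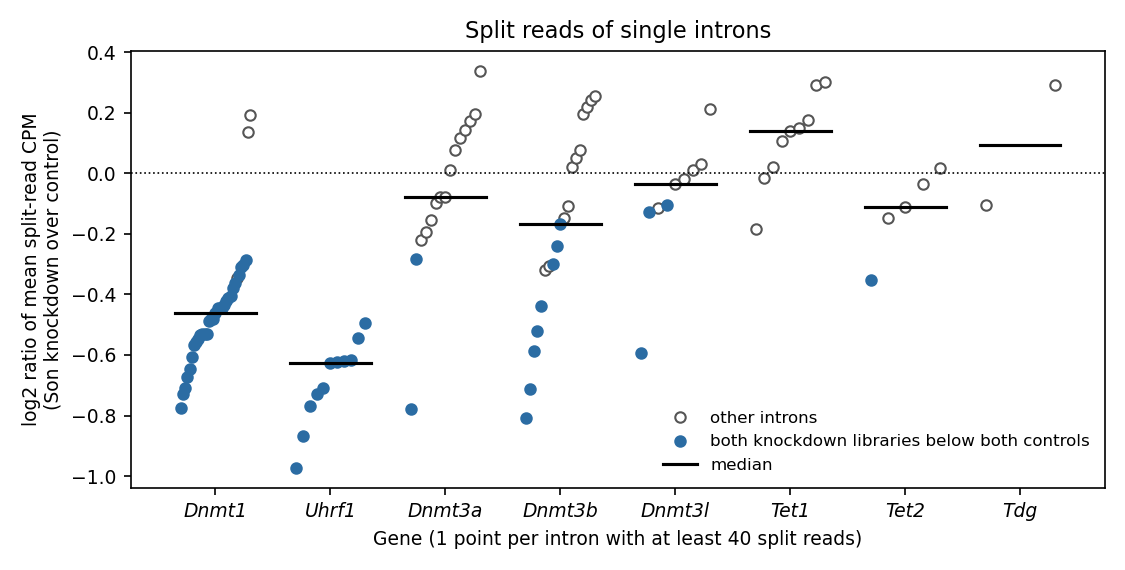
Log2 ratio of mean split-read CPM, knockdown over control, for each intron with at least 40 split reads, by gene; filled points have both knockdown libraries below both controls and bars are medians. In Uhrf1 all 11 points are filled and lie between -0.97 and -0.50, whereas in Tet1 none of 9 is filled.

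Among the de novo genes, *Dnmt3a* (ENSMUSG00000020661, chromosome 12) had 129 and 134 CPM of spliced reads in the controls against 138 and 115 in the knockdown, groups that overlapped (log2 fold change -0.07, edgeR adjusted p = 0.757). Its splicing efficiency was 0.972 and 0.983 in the controls and 0.962 in both knockdown libraries. The log2 odds ratio of 0.76 had an SE of 0.28 and was not called (edgeR adjusted p = 0.0731). Unsplit reads of *Dnmt3a* were few, 115 and 49 in the controls against 160 and 93 in the knockdown. In 8 of its 15 introns both knockdown libraries lay below both controls, against 24.3% of all introns. Leaving out control 1 or control 2 moved the gene's log2 odds ratio to 1.16 or 0.46, neither of them called. Intron 15 (229 nt) had the smallest p, with 0.993 and 0.998 against 0.974 and 0.983 (log2 odds ratio 2.14, SE 0.73, adjusted p = 0.135), and intron 17 (686 nt) had 0.935 and 0.962 against 0.894 and 0.881 (adjusted p = 0.675).

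*Dnmt3b* (ENSMUSG00000027478, chromosome 2) had 210 and 209 CPM in the controls against 189 and 195 in the knockdown. These groups did not overlap, yet the difference was not called (log2 fold change -0.15, SE 0.08, edgeR adjusted p = 0.319). Its splicing efficiency was 0.967 and 0.955 in the controls against 0.960 and 0.961 in the knockdown, within the range of the controls (log2 odds ratio 0.06, adjusted p = 0.989). Its introns pointed both ways, with 9 of 17 odds ratios above 0. The first intron had 0.970 and 0.914 in the controls against 0.978 and 1.00 in the knockdown, on 10 or fewer unsplit reads per library (log2 odds ratio -2.23, SE 0.93, adjusted p = 0.315). Intron 11 had the largest difference downward, from a mean of 0.884 to 0.818 with overlapping groups.

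*Dnmt3l* (ENSMUSG00000000730, chromosome 10), the cofactor, had 761 and 801 CPM in the controls against 761 and 782 in the knockdown, which overlapped (log2 fold change -0.04, edgeR adjusted p = 0.825). Its splicing efficiency was 0.979 in both controls and in knockdown 1 and 0.974 in knockdown 2 (log2 odds ratio 0.16, adjusted p = 0.916). Intron 6 (607 nt) stood out with 0.893 and 0.909 against 0.852 and 0.647. The difference in means (knockdown minus control) was -0.151, but the knockdown libraries lay far apart and it was not called (log2 odds ratio 1.47, SE 0.58, adjusted p = 0.259).

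Among the demethylation genes, *Tet1* (ENSMUSG00000047146, chromosome 10) had 485 and 482 CPM in the controls against 525 and 490 in the knockdown. Both knockdown libraries lay above both controls, but the knockdown libraries differed from each other by more than the lower of them did from the controls, and the gene was not called (log2 fold change 0.05, SE 0.07, edgeR adjusted p = 0.772). Its splicing efficiency was 0.945 and 0.947 against 0.946 and 0.932 (log2 odds ratio 0.17, adjusted p = 0.909). *Tet1* was read deeply, with 16706 split reads in control 1, and its 10 introns gave odds ratios between -0.09 and 0.61, none of them called. The largest belonged to intron 11 (0.933 and 0.929 against 0.929 and 0.854).

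*Tet2* (ENSMUSG00000040943, chromosome 3) was the least efficiently spliced of the 8 genes in controls, at 0.805 and 0.844, with 0.823 and 0.785 in the knockdown (log2 odds ratio 0.19, edgeR adjusted p = 0.909). Its intron 4 was spliced at 0.528 and 0.479 in the controls against 0.408 and 0.481 in the knockdown, below 0.5 in 3 of 4 libraries. Intron 3 had 0.739 and 0.791 against 0.685 and 0.672, groups that did not overlap, and was not called (log2 odds ratio 0.62, SE 0.42, adjusted p = 0.751). Spliced reads were 89.1 and 92.1 CPM in the controls against 90.4 and 82.9 in the knockdown (log2 fold change -0.08, adjusted p = 0.712).

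*Tdg* (ENSMUSG00000034674, chromosome 10) was covered least, with 2 listed introns of the 9 of its transcript ENSMUST00000092266. It had 17.7 and 24.1 CPM in the controls against 24.2 and 18.5 in the knockdown. The means of 20.9 and 21.4 CPM lay closer together than the SDs of 4.54 and 4.01 (log2 fold change 0.04, SE 0.18, edgeR adjusted p = 0.945). Splicing efficiency was 0.902 and 0.930 against 0.928 and 0.877 (log2 odds ratio 0.18, SE 0.37, adjusted p = 0.970). Both SEs were the largest of the 8 genes.

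Divided by the number of introns summed, spliced reads in the controls averaged 78.1 CPM per intron for *Dnmt3l*, 53.8 for *Uhrf1*, 48.4 for *Tet1*, 33.6 for *Dnmt1*, 18.1 for *Tet2*, 11.03 for *Dnmt3b*, 10.4 for *Tdg* and 8.75 for *Dnmt3a*. *Tdg* (8.83 and 12.0) overlapped both *Dnmt3b* (11.05 and 11.01) and *Dnmt3a* (8.59 and 8.92), and the other neighbours in this order did not overlap. In the controls *Uhrf1* (52.0 and 55.5) lay above *Tet1* (48.5 and 48.2). In the knockdown *Uhrf1* lay below (35.7 and 33.5 against 52.5 and 49.0). Introns listed in all 4 libraries alone entered these values, and the order of the genes depends on which introns are averaged. For *Tet1* they include introns of other models with few split reads at the 5′ junction. These had 3.85 and 3.93 CPM and 0.514 and 0.672 CPM in the controls. In long reads *Tet1* lay above *Uhrf1* in the control library too (834 against 91.9 CPM).

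Averaged over introns with equal weight, the 106 member introns had an efficiency of 0.938 and 0.937 in the controls against 0.921 and 0.903 in the knockdown. The difference was -0.0254 (two-sided exact permutation test, p = 0.333, the smallest that 2 samples against 2 allow). It was -0.0164 without knockdown library 2 and -0.0164 on pooled reads. It was -0.0418 in *Dnmt1* and *Uhrf1*, -0.0133 in the other 6 genes and -0.0139 over all 68322 introns.

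The long reads, with 1 library per group, allow no test, and intervals cover counting error only. *Uhrf1* had 283 reads in the control and 117 in the knockdown, 91.9 (95% Wilson interval 81.8 to 103) and 62.4 (52.1 to 74.8) CPM. The intervals did not overlap, and the log2 ratio was -0.55. *Dnmt1* had 260 and 129 reads, 84.4 (74.8 to 95.3) and 68.8 (57.9 to 81.8) CPM with overlapping intervals and a log2 ratio of -0.29. Both thus had a lower long-read CPM in the knockdown library, as they had fewer spliced reads, though long reads of *Dnmt1* differed by less than its counting intervals.

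In 2 other genes the assays gave different values. *Dnmt3l* had 403 and 359 long reads, 131 (119 to 144) and 192 (173 to 212) CPM, a log2 ratio of 0.55 where its spliced reads gave -0.04. *Tet1* had 2568 and 1215 long reads, 834 (802 to 867) and 648 (613 to 686) CPM, a log2 ratio of -0.36 where its spliced reads gave 0.05. The remaining genes had overlapping intervals, with log2 ratios of -0.45 for *Dnmt3a*, -0.23 for *Dnmt3b*, -0.12 for *Tet2* and 0.13 for *Tdg*. None of the 8 genes differed by the 2-fold used as a limit, which 4.16% of genes passed downward and 2.2% upward, and *Son* itself had 217 and 37 long reads (log2 ratio -1.82).

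**Figure D5:**
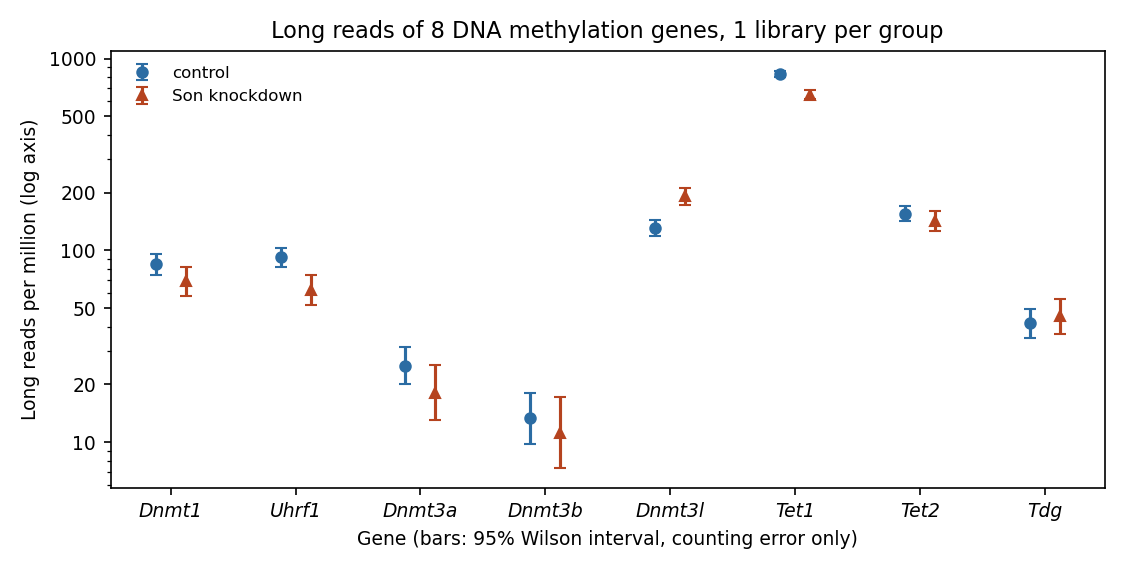
Long-read CPM of each gene on a log axis, 1 control and 1 knockdown library, with 95% Wilson intervals for counting error only. Intervals of the 2 libraries are apart for Uhrf1 (91.9 and 62.4), Dnmt3l (131 and 192) and Tet1 (834 and 648) and overlap for the other 5 genes.

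Of 83 member transcripts in the long-read tables, 57 had a read and 25 had at least 20 over both libraries. Of these 25, 1 was at least 2-fold lower and 2 at least 2-fold higher in the knockdown, against 5.8% and 3.32% of all transcripts with that many reads. *Tet1-207*, a short coding model of 414 nt, had 53 and 11 reads (log2 ratio -1.50). *Dnmt1-203* had 20 and 26 reads (1.09) and *Dnmt3l-202* 10 and 13 reads (1.08). With at least 50 reads required, 1 transcript passed.

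*Dnmt1* reads were spread differently over its models in the 2 libraries. *Dnmt1-201* took 77.7% (72.3 to 82.3) of the gene's long reads in the control and 57.4% (48.7 to 65.6) in the knockdown, and *Dnmt1-203* took 7.69% (5.04 to 11.6) and 20.2% (14.1 to 27.9). In GENCODE M21 these models have different first exons, and the intron that follows the first exon of *Dnmt1-203* is intron 1 in the total RNA tables. At its 5′ junction 4 and 3 split reads were counted in the controls against 7 and 5 in the knockdown, too few to compare the groups. At its 3′ junction there were 511 and 388 split reads in the controls against 434 and 273 in the knockdown. In every library, then, few of the reads split there came from this first exon, unlike the long-read shares of *Dnmt1-203*. The reason was not tested, and those shares should be read with that limit. Intron 1 was looked up after the long-read values were seen.

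Models annotated as retained introns took few long reads of the pair, 3 of 260 and 3 of 129 for *Dnmt1* and 3 of 283 and 4 of 117 for *Uhrf1*. For *Tet2* they took 47 of 477 reads in the control, 9.85% (7.49 to 12.9), and 33 of 267 in the knockdown, 12.4% (8.94 to 16.9). The *Tet2* intervals overlapped. *Uhrf1-201* had 135 and 46 reads, *Uhrf1-204* 66 and 28, *Uhrf1-203* 43 and 16 and *Uhrf1-202* 36 and 23, so 3 of its 4 models with enough reads had a log2 ratio below -0.50 and *Uhrf1-202* had 0.08.

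Other genes of the pathway were taken as 50 genes in 5 lists, of which 47 were listed in the tables. Of these, 6 were called less efficiently spliced and 9 lower in spliced reads by edgeR, and none was called in the other direction by either measure (6 and 15 passed an unadjusted p under 0.05). The background is 6.98% and 6.76% of all genes. The medians over the 47 genes were 0.12 for the log2 odds ratio and 0.0049 for the log2 fold change of spliced reads, close to those over all genes (0.09 and 0.0054).

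In the list for oxidation and base excision, 3 of 11 genes were called less efficiently spliced and 4 lower in spliced reads. Over all genes these shares were 6.98% and 6.76%. The list medians were 0.16 for the log2 odds ratio and 0.029 for the log2 fold change of spliced reads. *Neil1*, a DNA glycosylase, fell most in efficiency, from 0.723 and 0.745 in the controls to 0.420 and 0.363 in the knockdown, and its spliced reads went from 9.63 and 8.92 to 3.15 and 4.05 CPM (log2 fold change -1.40, edgeR adjusted p = 0.000617). *Xrcc1*, the scaffold of single-strand break repair, fell from 0.921 and 0.889 to 0.797 and 0.783 in efficiency and by 0.67 on the log2 scale in spliced reads. *Lig3*, the ligase that works with *Xrcc1*, fell from 0.943 and 0.931 to 0.883 and 0.875 in efficiency and by 0.55 on the log2 scale. *Parp1*, which senses strand breaks, fell by 0.38 on the log2 scale in spliced reads (adjusted p = 0.000691) with an efficiency that was not called (0.983 and 0.981 against 0.978 and 0.980). Without control 1 both *Lig3* calls and the *Xrcc1* efficiency call were lost, and with the best covered intron the spliced-read calls of *Neil1*, *Lig3* and *Parp1* were lost.

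In the list for supply of the methyl donor and the Tet cofactor, 3 of 11 genes were called less efficiently spliced and 4 lower in spliced reads. Over all genes these shares were 6.98% and 6.76%. The list medians were 0.16 for the log2 odds ratio and 0.0049 for the log2 fold change of spliced reads. *Idh2*, the mitochondrial isocitrate dehydrogenase that makes alpha-ketoglutarate, had 118 and 114 CPM in the controls against 46.9 and 39.4 in the knockdown (log2 fold change -1.44, edgeR adjusted p = 1.73e-08). *Shmt2*, of mitochondrial one-carbon metabolism, had 335 and 301 against 189 and 165 CPM (-0.86). *Mat2a*, which makes S-adenosylmethionine, had 235 and 238 against 191 and 193 CPM (-0.32, adjusted p = 0.00896), and its efficiency was not called. The *Mat2a* call was lost without control 1 (adjusted p = 0.196), without control 2 (0.245) and with the best covered intron (0.0697), in a range of 2.52e-05 to 0.245 over all settings. The *Shmt2* efficiency call was lost without control 1.

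Among 7 partners of maintenance methylation, the replication ligase *Lig1* alone was called, in spliced reads (823 and 812 against 718 and 700 CPM, log2 fold change -0.23, edgeR adjusted p = 0.0315), and none was called in efficiency or passed an unadjusted p under 0.05 there. The *Lig1* call was lost without control 1 (adjusted p = 0.481), without control 2 (0.410), with the best covered intron (0.212) and with DESeq2 (0.0530), in a range of 1.57e-05 to 0.481 over all settings. Of 8 listed readers of methylated CpG and 10 listed genes of imprint protection or targeting, edgeR called none in either measure. At an unadjusted p under 0.05, 2 genes of each of these last lists passed in spliced reads and none in efficiency. Across the lists the counts depended on the setting: without control library 1 there were 2 calls for efficiency and 5 for spliced reads, without knockdown library 1 there were 15 for spliced reads, the best covered intron alone gave 3 for spliced reads, and limma on log odds gave none for efficiency.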

How the data were processed

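Total RNA of 2 control and 2 knockdown samples and long-read cDNA of 1 sample of each kind were grouped by their titles. The authors' total RNA tables, made with SPLICE-q per the labels, hold counts at each intron's junctions of reads that are split or not, and a fraction, the splicing efficiency, which on the tables equals split over all reads. Every listed junction had at least 10 reads. For long reads the authors deposited counts per transcript. The submitters' processing notes name GRCm39, SAMtools and minimap2 with no role; aligner settings and strand use are not given in the sources used here, so values of overlapping genes are uncertain. The description of the long-read control names a knockdown sample as starting material, so no pairing between assays was used.

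Repeated introns were reduced to 1 entry. Names and transcript sequences came from GENCODE M21 by identifier (98.6% of long-read transcripts matched). Only 2.53% of 68093 introns had the same position there, so positions are those of the tables.

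Efficiency was tested with edgeR 4.0.16 (R 4.3.3, quasi-likelihood), each library giving a split and an unsplit column of equal library size, and unsplit reads in the knockdown as the tested term. Introns needed 10 split and 10 unsplit reads over the libraries. Spliced reads were tested with edgeR after TMM scaling and filterByExpr. P-values were adjusted by Benjamini-Hochberg over all introns or genes, with a threshold of 0.05. Long reads were compared as CPM with a pseudocount of 0.5. The models were tested on simulated data. Member introns had a median of 332 to 618 junction reads per library, and a read spanning an intron counts at both junctions.

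All 8 genes were named, with every called intron, each gene's intron of smallest p and of largest fall, transcripts with at least 20 long reads and called genes of the pathway lists, of which 1 is not reported here. The members and lists were chosen with earlier results of these data known. Alternatives were DESeq2 1.42.0, limma 3.58.1, single junctions, other scalings and filters, single replicates left out and a replicate block.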

Additional observations from a re-analysis of the deposited data

How the results depend on the processing

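Spliced reads of *Dnmt1* and *Uhrf1* were called lower under all alternatives for that test. The count of 9 introns became 1 with DESeq2, 0 with limma, 1 and 2 with the 5′ or 3′ junction alone, and 0 to 8 with a library left out. The 2 genes called less efficiently spliced became 0 with limma and 0 to 2 with a library left out. For the other genes of the pathway, 6 efficiency calls became 0 with limma and 2 to 6 with a library left out, and 9 spliced-read calls became 3 with the best covered intron and 5 to 15 with a library left out. The 3 long-read transcripts became 1 with at least 50 reads. The cause was not tested, and shares over all introns in these settings are not given here.

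Same-numbered samples did not deviate together across genes or introns (r between same-numbered deviations 0.002 for spliced reads and 0.008 for log odds). That correlation cannot show a shift shared by all genes or introns. Replicate 1 was deeper than replicate 2 in controls (34141255 against 22847118 junction reads) and knockdown (32154344 against 22845870). Its mean efficiency over all introns was also higher (0.903 against 0.893, and 0.893 against 0.875). Whether the numbers mark a batch was not tested. With the replicate block, 11 introns, 3 genes for efficiency and 2 for spliced reads were called, with 7 and 9 among the other genes of the pathway. Shares over all introns and genes with the block are not given here. The block called the efficiency of *Dnmt3a* (log2 odds ratio 0.74, adjusted p = 0.00267) and *Mat2a* (0.36, 0.0195), and *Son* stood at -1.61 in it. *Dnmt3l* intron 6 was called without knockdown library 1 (2.29, 0.0238).

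Uncalled values changed sign as follows. With the best covered intron alone, spliced reads gave 0.067 for *Dnmt3a*, 0.048 for *Dnmt3b*, 0.0039 for *Dnmt3l*, -0.040 for *Tet1* and -0.11 for *Tdg*. With a library left out they ranged from -0.21 to 0.051 for *Dnmt3a* and from -0.19 to 0.26 for *Tdg*. Efficiency odds ratios with split and unsplit reads scaled separately were -0.098 for *Dnmt3b*, -0.0060 for *Dnmt3l* and -0.0013 for *Tet1*. That scaling moved the median over all introns from 0.12 to -0.042. *Dnmt3b* gave -0.052 with the 3′ junction alone. With a library left out the odds ratios ranged from -0.17 to 0.28 for *Dnmt3b*, from -7.12e-05 to 0.39 for *Tet2*, from -0.24 to 0.61 for *Tdg* and from -0.019 to 0.50 for *Lig1*. With 2 libraries a group, leaving 1 out assumes that the lone one varies like the other group. The SEs were largest for *Tdg*, which had the fewest spliced reads of the 8 genes.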
